A study of Homo sapiens with 8 samples.

Results

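Baseline gene expression of MDA-MB-231, a human breast cancer cell line, was set against that of HCT116, a human colorectal cancer cell line. The comparison used 4 of the 8 arrays of the series, 2 arrays per line. Each array is a 2-colour Agilent expression array, on which RNA of mock cells carried the green dye Cy3 and RNA of transfected cells of the same line carried the red dye Cy5. Only the green channel was compared here, so every value below is from mock cells, which the labels describe as not transfected, unless the red channel is named. The red channel held MDA-MB-231 cells given si-GINS1_1 or si-GINS1_2, siRNAs against GINS1, and HCT116 cells given miR-490-5p or miR-490-3p. The renal cancer lines A498 and 786-O made up the other 4 arrays. The growth medium is labelled RPMI 1640 or DMEM without saying which line had which. The methods of the study give DMEM for HCT116, and the medium of MDA-MB-231 is not given in the sources used here, so line and medium cannot be told apart.

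The labels do not say whether both arrays of a line carried separate mock extracts. They were therefore counted as 1 mock sample per line, measured on 2 arrays, and the gap between those arrays is technical spread only. No test between the lines was possible, and no p-value is given. A gene was called higher in a line when its mean log2 Cy3 intensity differed by at least 1, which is a 2-fold difference. All differences are MDA-MB-231 minus HCT116, so a negative value means a higher level in HCT116. Of 42072 genes named on the array, 21072 were measured, meaning that their probe was well above background on both arrays of at least 1 line. The level of a probe depends on its sequence, so levels are compared between lines for the same probe and never between genes.

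All 8 arrays lay on 1 slide. Between 24921 and 26981 probes were well above background on the 4 green channels, with the lowest count on HCT116 array 1, which also had the highest median background (17 against 14 on the other 3). No spot was saturated. Precision is set by the number of arrays. Between both arrays of a line the log2 levels differed with an SD of 0.07 in MDA-MB-231 and 0.08 in HCT116 over the 21072 genes, against an SD of 0.85 between the lines. Only LOC102723366 differed by 1 or more between arrays of the same line, with 6.13 and 7.94 on the HCT116 arrays.

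MDA-MB-231 is known as a line of spindle-shaped, invasive cells without oestrogen receptor, and HCT116 as an epithelial line with deficient DNA mismatch repair and normal p53. Epithelial cells hold to each other through E-cadherin junctions, desmosomes and tight junctions and carry keratin filaments. Mesenchymal cells use vimentin filaments, matrix proteins and integrins instead, and factors such as ZEB1 repress epithelial genes by binding the short DNA word called the E-box. These facts are background for the gene groups below and were not measured here.

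In all, 1563 genes (7.42% of those measured) were higher in MDA-MB-231 and 1465 genes (6.95%) were higher in HCT116. At a difference of at least 2 log2 units the counts were 426 and 375, and at 4 they were 63 and 49. On no called gene did the arrays of both lines overlap, which follows largely from the size rule, since arrays of a line differed little. For 315 of the genes higher in MDA-MB-231 the probe was not well above background on either HCT116 array, and for 264 of the genes higher in HCT116 it was not so on either MDA-MB-231 array. A fold is given for these genes only as a lower bound. These genes passed the filter only through the line where they were high, and the counts of gene lists below include them. Of the 541 genes higher in MDA-MB-231 that had another measured probe, every other probe had the same direction in 507 and passed the rule in 146, and of 401 such genes higher in HCT116 these counts were 377 and 110, so the size of a difference often depended on the probe. The median difference over all measured genes was -0.01, and the levels of both lines had a correlation of 0.90 across genes, which are not independent replicates.

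**Figure D1:**
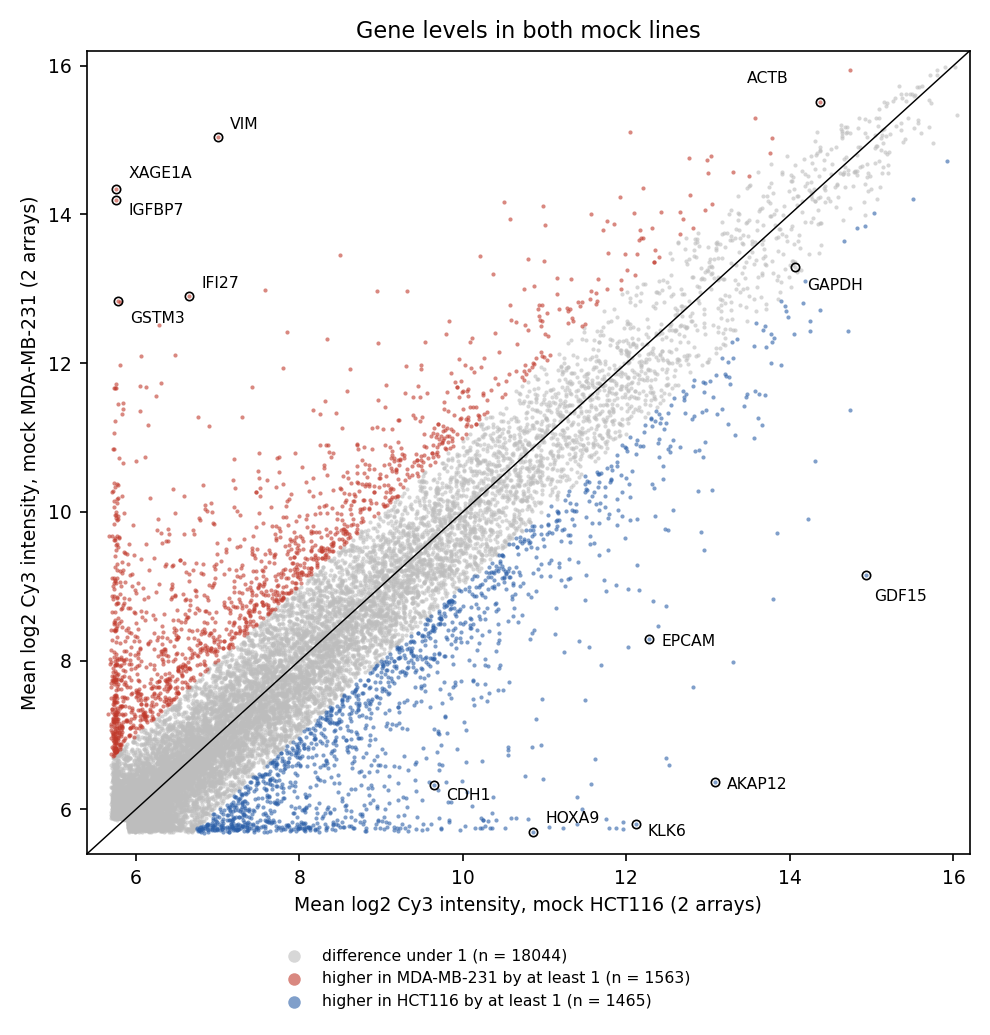
Mean log2 Cy3 intensity of 21072 measured genes in mock HCT116 (horizontal axis) and mock MDA-MB-231 (vertical axis), 2 arrays per line, with genes at least 1 log2 unit apart in red or blue. VIM, XAGE1A and IGFBP7 stand at the upper left, bright in MDA-MB-231 and dim in HCT116, while AKAP12, KLK6 and HOXA9 stand at the lower right.

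The gene with the largest difference among those measured in both lines was VIM, which encodes the intermediate filament protein vimentin. Its probe at chr10:17278347-17279256 (hg19) read 15.14 and 14.96 on the MDA-MB-231 arrays and 6.98 and 7.02 on the HCT116 arrays. VIM was thus 264-fold higher in MDA-MB-231. IFI27, an interferon-induced gene, followed with 12.90 and 12.91 against 6.65 and 6.66, and PLAAT4, a retinoid-induced phospholipase, with 12.52 and 12.51 against 6.30 and 6.27, 76.2-fold and 75.1-fold higher. BST2, which encodes the surface protein tetherin that holds back budding viruses, was 49.4-fold higher, and THBD, which encodes the anticoagulant receptor thrombomodulin, 50.3-fold. AKR1C3, a steroid-reducing enzyme, CYP1B1, an oestrogen- and xenobiotic-metabolising cytochrome, and P3H2, a collagen prolyl hydroxylase, were 47.3-, 42.7- and 39.7-fold higher. ANXA8L1, a member of the annexin A8 family of near-identical copies, was 65.0-fold higher, but the RNA of its copies cannot be separated with certainty. ADAM8, a membrane metalloproteinase, was 42.0-fold higher on its brightest probe (13.02 and 12.93 against 7.55 and 7.62), whereas its other 2 probes differed by only 0.18 and 0.37.

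Other genes were bright in MDA-MB-231 and not well above background in HCT116. XAGE1A, a cancer-testis antigen gene on the X chromosome with near-identical copies, read 14.26 and 14.41 on the MDA-MB-231 arrays and 5.75 and 5.77 on the HCT116 arrays, at least 358-fold higher. IGFBP7, which encodes a secreted insulin-like growth factor binding protein, read 14.22 and 14.18 against 5.78 and 5.74 with its probe at chr4:57897423-57897482, at least 324-fold higher, while its other 2 probes differed by 1.59 and 7.35. Both genes were at the bottom of the measured range on both HCT116 arrays. GSTM3, a glutathione transferase of the mu class, and GNG11, a G protein gamma subunit, were at least 126-fold and 125-fold higher. COXFA4L3 was at least 69.8-fold higher. HTRA1, a secreted serine protease, NNMT, which methylates nicotinamide, TXNIP, the thioredoxin-binding protein, G0S2, an inhibitor of lipolysis, and CTSF, a lysosomal cathepsin, had bounds from 48.3-fold to 58.5-fold.

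On the HCT116 side, AKAP12, a scaffold protein for protein kinases A and C, had the largest difference among genes measured in both lines. Its probe at chr6:151670006-151670065 read 6.33 and 6.41 on the MDA-MB-231 arrays and 13.06 and 13.10 on the HCT116 arrays, 105-fold higher in HCT116, and its other 2 probes differed by -5.97 and -3.96. UCA1, a long noncoding RNA first described in bladder cancer, was 60.7-fold higher (6.57 and 6.64 against 12.56 and 12.49), and CRIP1, a small LIM domain protein, 55.5-fold. GDF15, a stress-induced cytokine of the TGF-beta family, was well above background in both lines and still 55.0-fold higher in HCT116 (9.11 and 9.19 against 14.89 and 14.97). IGFBP2, another insulin-like growth factor binding protein, was 43.4-fold higher, so that the binding protein genes IGFBP7 and IGFBP2 stood at opposite ends of the comparison. PRSS8, the membrane serine protease prostasin, DMKN, a secreted epidermal protein, and TRIB1, a pseudokinase, were 37.5-, 37.4- and 35.9-fold higher. SNAR-F and SNAR-G2, members of a family of near-identical small noncoding RNAs, were 39.7- and 31.3-fold higher, and which copies each probe reads is uncertain.

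Genes seen in HCT116 and not well above background in MDA-MB-231 included a pair of kallikrein proteases. KLK6 read 5.81 and 5.79 against 12.11 and 12.12 at chr19:51461888-51461947, at least 77.6-fold higher in HCT116, with a difference of -2.41 on its other probe, and KLK8 was at least 62.2-fold higher. TESC, a calcium-binding protein, GTSF1, a germline factor of the piRNA pathway, and NTSR1, the neurotensin receptor, were at least 69.9-, 65.7- and 47.1-fold higher. MAL2, a protein of apical transport in epithelial cells, and HOXA9, a homeobox factor, were at least 42.1-fold and 32.6-fold higher, and FBXL16, an F-box protein, at least 30.6-fold. MAGEA6 and MAGEA2B, cancer-testis genes of a family whose copies are alike in sequence, had bounds of 70.0-fold and 37.4-fold, each with a smaller difference on its other probe (-2.08 and -1.25).

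Genes of epithelial junctions and surfaces were mostly higher in HCT116. Of 30 measured, 20 were higher in HCT116 (66.7%, against 6.95% of all genes), with a median difference of -1.62. In MDA-MB-231, 1 was higher (3.33%, against 7.42%), and 9 differed by less than 1. Of the 30, 4 were measured through HCT116 alone. Of the 24 well above background on all 4 arrays, 15 were higher in HCT116 and 1 in MDA-MB-231. CDH1, which encodes E-cadherin, read 6.34 and 6.31 on the MDA-MB-231 arrays and 9.60 and 9.69 on the HCT116 arrays at chr16:68869214-68869273, 9.98-fold higher in HCT116. EPCAM, the epithelial adhesion molecule, read 8.33 and 8.26 against 12.25 and 12.31, 15.8-fold higher. The MDA-MB-231 level of EPCAM was above that line's background, so the gene was dimmer there rather than unseen. The claudins of tight junctions were unequal, since CLDN3 and CLDN7 were 6.55-fold and 6.66-fold higher in HCT116, while CLDN4 was bright in both lines (12.80 and 13.02 against 13.15 and 13.27) with a difference of -0.30. The polarity gene CRB3 was 10.3-fold higher, the desmosomal genes DSP, PKP3 and JUP 4.46-, 4.46- and 3.14-fold, and the recycling GTPase gene RAB25 at least 10.7-fold. CDH3, which encodes P-cadherin, was well above background on only 1 MDA-MB-231 array and differed by -4.71.

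Regulators that maintain the epithelial state followed the same side where they passed the size rule. Of 15, 6 were higher in HCT116 (40%, against 6.95% of all genes) and 0 in MDA-MB-231 (median difference -0.54). Of the 15, 5 were measured through HCT116 alone and 1 through MDA-MB-231 alone. Of the 9 well above background on all 4 arrays, 3 were higher in HCT116. ESRP1 and ESRP2, the epithelial splicing factors, were at least 7.10-fold and 7.28-fold higher, OVOL1 at least 4.92-fold, ELF3 7.05-fold, GRHL1 2.27-fold and GRHL2 at least 2.29-fold. EHF, an epithelial ETS factor (0.56), and FOXA2 (0.69, measured through MDA-MB-231 alone) had the opposite sign without passing the rule. Keratins were divided. KRT8 (10.35 and 10.41 against 12.03 and 12.04), KRT15 and KRT23 were higher in HCT116, KRT7 (14.25 and 14.21 against 11.96 and 11.88), KRT80 and KRT86 were higher in MDA-MB-231, and KRT18 (-0.68) and KRT19 (-0.18) were bright in both. The other probe of KRT18 did pass, at -1.21.

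**Figure D2:**
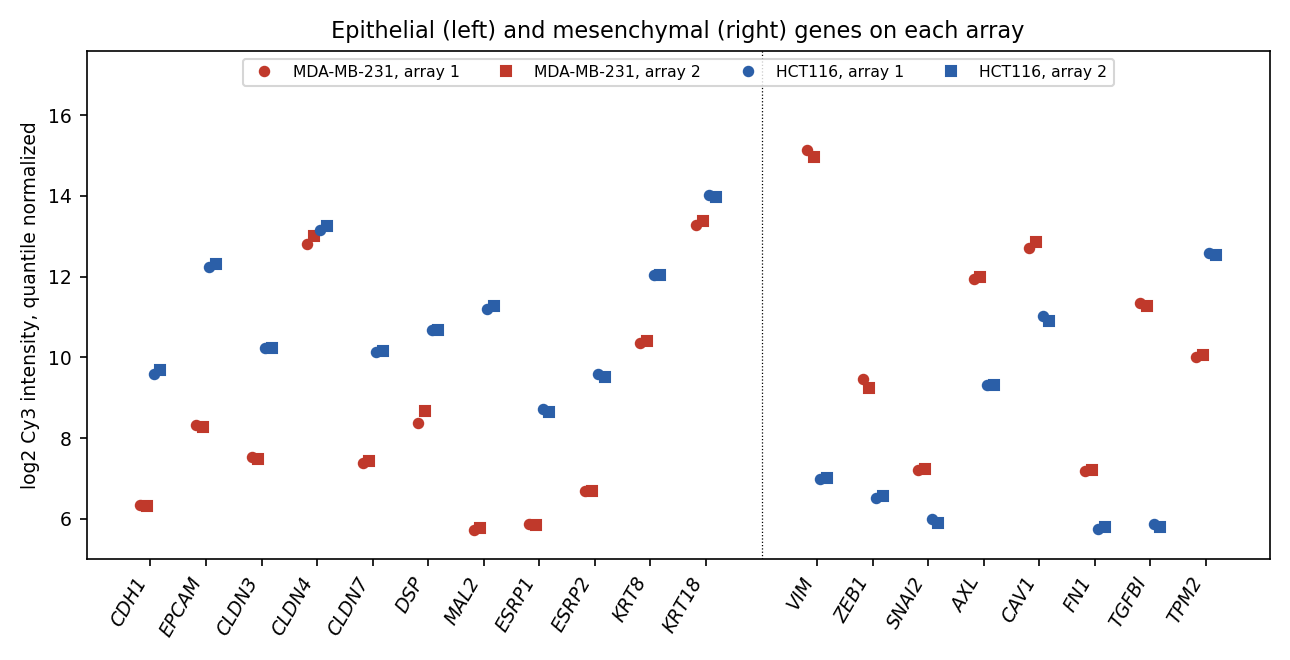
log2 Cy3 intensity of 11 epithelial and 8 mesenchymal genes on each of the 4 arrays, MDA-MB-231 in red and HCT116 in blue, with circles for array 1 and squares for array 2 of a line. Both arrays of a line lie close together for every gene, CLDN4 nearly overlaps between lines, and TPM2 runs against its group.

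Mesenchymal genes were mostly higher in MDA-MB-231. Of 9 transcription factors measured, 4 were higher in MDA-MB-231 (44.4%, against 7.42% of all genes) and 0 in HCT116. Of the 9, 2 were measured through MDA-MB-231 alone. ZEB1, the E-box binding repressor, read 9.47 and 9.24 on the MDA-MB-231 arrays and 6.52 and 6.56 on the HCT116 arrays, 7.05-fold higher, with 1.53 on its other probe. SNAI2, RUNX2 and TEAD1 were 2.42-, 2.72- and 2.04-fold higher. SNAI1, by contrast, differed by -0.71 and FOXC1 by -0.85, and TWIST1, TWIST2, PRRX1, FOXC2 and TCF4 were not well above background in either line by the filter used. Of 27 structural and surface genes, 6 were measured through MDA-MB-231 alone, and the median difference was 1.20. In HCT116, 2 were higher (7.41%, against 6.95% of all genes). Of the 20 well above background on all 4 arrays, 12 were higher in MDA-MB-231 and 1 in HCT116. In MDA-MB-231, 16 of the 27 were higher (59.3%, against 7.42%). Beside VIM these included TGFBI, a TGF-beta-induced matrix protein (at least 44.1-fold, 11.36 and 11.28 against 5.87 and 5.805), the receptor kinase AXL (6.28-fold, 11.94 and 11.99 against 9.30 and 9.32), the caveolar genes CAVIN3 (4.70-fold) and CAV1 (3.53-fold), the myosin light chain MYL9 (3.83-fold) and the cadherin gene CDH11 (at least 2.94-fold). CDH2, which encodes N-cadherin, differed by only 0.25 and was not well above background in HCT116. TPM2, a tropomyosin, ran the other way with 10.002 and 10.05 against 12.60 and 12.54, 5.83-fold higher in HCT116, and so did SPARC, a matrix glycoprotein (-1.06), which was above background on 1 MDA-MB-231 array.

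The promoters of the epithelial genes were searched for the E-box, whose letters are CAGGTG or, read on the other strand, CACCTG. RefSeq promoter windows of 300 bases (250 before to 50 after the first listed start, GRCh38.p14) were matched for 17 of the 30 epithelial junction and surface genes. Of these, 10 (58.8%) held at least 1 E-box, against 20.6% of 27305 promoters of the same length and 19.1% of 12162 promoters of measured genes. Among the 11 matched genes that were higher in HCT116, 6 held one (54.5%). The share was thus no higher among these than over the 17 matched genes. CRB3 held 5 in its window. Printed here are E-boxes of 4 genes that were higher in HCT116 and, last, of 1 that did not pass the rule, each written 5′ to 3′ on the gene's strand with the E-box in capitals.
CRB3, chr19:6464035-6464056: tcgcaatgCAGGTGtaaggtcc
CRB3, chr19:6464055-6464076: ccccctcaCACCTGcgcgcttc
RAB25, chr1:156061111-156061132: tctccaccCACCTGggccccag
DSP, chr6:7541578-7541599: aaaccggcCAGGTGtggcctag
CDS1, chr4:84583092-84583113: gagacgcgCACCTGgcaaccgg
OCLN, chr5:69492506-69492527: ccgagtttCAGGTGaattggtc
These are matches of letters, and whether any factor was bound there was not measured. CRB3 with its 5 E-boxes differed by -3.36, whereas AP1M2, which held 3, differed by -0.69 and did not pass the rule.

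Matrix genes were higher in MDA-MB-231 over most of the list. Of 32 laminins, collagens and other matrix proteins, 18 were higher in MDA-MB-231 (56.2%, against 7.42% of all genes). In HCT116, 1 was higher (SPARC again, 3.12%, against 6.95%), and the median difference was 1.09. Of the 32, 8 were measured through MDA-MB-231 alone. Of the 21 well above background on all 4 arrays, 13 were higher in MDA-MB-231 and 0 in HCT116. EFEMP1, which encodes fibulin-3, was at least 41.1-fold higher (11.23 and 11.21 against 5.71 and 5.78). Among collagens, COL5A1 (24.6-fold), COL13A1 (15.8-fold), COL4A2 (14.5-fold) and COL8A1 (at least 9.56-fold) led. The other probes of COL5A1 differed by 0.07 and 2.15, so its size depends on the probe. Of the laminin chains, LAMA3, LAMB1, LAMB2, LAMB3 and LAMC1 were higher in MDA-MB-231, from 2.03-fold to 3.87-fold, although the other probes of LAMA3 and LAMB1 differed by 0.24 and 0.05. Fibronectin, from FN1, was not well above background in HCT116 and at least 2.53-fold higher in MDA-MB-231.

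Proteases and their inhibitors were less one-sided. Of 21, 9 were higher in MDA-MB-231 (42.9%, against 7.42% of all genes) and 3 in HCT116 (14.3%, against 6.95%). Of the 13 well above background on all 4 arrays, 6 were higher in MDA-MB-231 and 1 in HCT116. PLAT, tissue plasminogen activator, read 11.68 and 11.68 on the MDA-MB-231 arrays and 7.404 and 7.44 on the HCT116 arrays, 19.1-fold higher in MDA-MB-231. The membrane collagenase MMP14 was 5.41-fold higher and LOXL2, a collagen cross-linking oxidase, 4.75-fold. All 4 inhibitors of metalloproteinases were on the MDA-MB-231 side, TIMP1 at 4.06-fold, TIMP2 at 8.78-fold, TIMP3 at a bound of 16.6-fold and TIMP4 at a bound of 2.23-fold. SERPINB5, which encodes maspin, and SERPINE2, which encodes protease nexin-1, were at least 8.90-fold and 5.23-fold higher in HCT116, and ADAM19 was 2.45-fold higher there. Of 17 integrin genes, ITGAV, ITGB1, ITGB3 and ITGB5 were higher in MDA-MB-231 (23.5%, against 7.42% of all genes). ITGA7 was higher in HCT116 (5.88%, against 6.95%). ITGB3 was the only one of these not well above background in HCT116 (at least 3.02-fold).

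Antigen presentation genes had the largest share of members on 1 side among the 30 lists. Of 24 measured, 21 were higher in MDA-MB-231 (87.5%, against 7.42% of all genes) and 0 in HCT116, with a median difference of 2.05. Of the 24, 4 were measured through MDA-MB-231 alone. Of the 19 well above background on all 4 arrays, 16 were higher in MDA-MB-231. The class I heavy chain genes HLA-B and HLA-C were 4.43- and 3.37-fold higher, and B2M, which encodes their common light chain, read 13.03 and 13.04 on the MDA-MB-231 arrays and 10.89 and 10.86 on the HCT116 arrays, 4.46-fold higher. HLA genes are alike in sequence and differ between cell lines in their alleles, and the part of this in their values was not tested. Of the other HLA-DPB1 probes, 1 differed by -0.08. HLA-E differed by 0.25 on its brightest probe and by 1.40 on the other. The peptide transporter TAP1, its partner TAPBP, and the immunoproteasome genes PSMB9 and PSMB8 lie outside the HLA family and were 3.31-, 5.82- and 9.47-fold and at least 9.59-fold higher. PSMB10, the remaining immunoproteasome subunit, differed by 0.32. The class II genes HLA-DPA1 (at least 17.4-fold, 10.01 and 9.97 against 5.86 and 5.85), HLA-DPB1, HLA-DRA, HLA-DRB1, HLA-DMA and HLA-DMB were also higher on their brightest probes in MDA-MB-231, together with the class II regulator CIITA (at least 2.08-fold) and the invariant chain CD74 (at least 2.36-fold). NLRC5, the class I regulator, differed by 0.33.

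Interferon response genes were higher in MDA-MB-231 in 14 of 30 cases (46.7%, against 7.42% of all genes). In HCT116, 0 were higher, and the median difference was 0.99. Of the 30, 7 were measured through MDA-MB-231 alone. Of the 22 well above background on all 4 arrays, 10 were higher in MDA-MB-231. IFITM1 was 22.9-fold higher (11.25 and 11.30 against 6.76 and 6.75), whereas its neighbours IFITM2 and IFITM3 were bright in both lines and differed by 0.32 and 0.66. The IFIT genes, whose products bind foreign RNA, were 8.28-fold (IFIT1), 8.33-fold (IFIT2) and 9.89-fold (IFIT3) higher, MX1 7.44-fold, and the DNA sensors CGAS and IFI16 at least 3.98-fold and 5.87-fold. IFI6 (-0.43) and OAS3 (-0.14) did not share this direction. Factors that carry the signal stayed under the rule, with STAT2 at 0.75, IRF9 at 0.77 and IRF1 at 0.81.

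The letters TTTCNNTTTC, or GAAANNGAAA on the other strand, form the core of the element bound by interferon-activated factors. They were found in the promoter windows of 14 of 21 matched interferon genes (66.7%) and of 7 of 19 matched antigen presentation genes (36.8%). The shares were 3.65% of 27305 promoters and 2.98% of 12162 promoters of measured genes. Interferon genes were listed for their interferon response, so a high share could follow from the list alone and does not tell the lines apart. Among matched genes higher in MDA-MB-231, 9 of 11 interferon genes (81.8%) and 6 of 18 antigen presentation genes (33.3%) held the element. Each gene was counted once, also where matches overlapped, as in BST2. Printed here is 1 match each of 6 of the interferon and antigen presentation genes that were higher in MDA-MB-231, with the matched letters in capitals.
IFI27, chr14:94110620-94110645: gtctgcagTTTCGGTTTCctggaaaa
BST2, chr19:17405743-17405768: ctttctggGAAACTGAAActgaaaac
IFIT1, chr10:89392499-89392524: agctttagTTTCACTTTCccctttcg
IFITM1, chr11:314026-314051: acttctgaGAAACTGAAAcgacaggg
B2M, chr15:44711371-44711396: aagaaaagGAAACTGAAAacgggaaa
TAP1, chr6:32853815-32853840: gctttcgaTTTCGCTTTCccctaaat
IFI6 and OAS3 also held the element and were not higher in MDA-MB-231, and so did IFITM3, so a match in the window did not go with the call in every case.

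Cytokine and NF-kB genes were higher in MDA-MB-231 in 10 of 23 cases (43.5%, against 7.42% of all genes). In HCT116, 2 were higher (8.7%, against 6.95%). Of the 23, 6 were measured through MDA-MB-231 alone. Of the 15 well above background on all 4 arrays, 6 were higher in MDA-MB-231 and 2 in HCT116. BIRC3, an apoptosis inhibitor induced by NF-kB, read 10.12 and 10.07 against 6.81 and 6.89, 9.46-fold higher in MDA-MB-231. ICAM1, an adhesion receptor for leukocytes, was 4.02-fold higher, NFKBIA 2.89-fold, RELB 2.38-fold and CSF1, macrophage colony-stimulating factor, 3.45-fold. IL6 was dim in MDA-MB-231 and at background in HCT116 (7.17 and 7.399 on the MDA-MB-231 arrays and 5.73 and 5.73 on the HCT116 arrays), at least 2.70-fold higher. CXCL1 (0.55) and CXCL8 (0.20) did not pass. LIF and CXCL16 were higher in HCT116, 3.04-fold and 2.51-fold. CSF1R, the receptor for CSF1 and a marker of macrophages, was at least 10-fold higher in MDA-MB-231 (9.17 and 9.19 against 5.86 and 5.81), and CD14 differed by 2.79. The leukocyte marker PTPRC read 6.10 and 6.12, and the endothelial markers CDH5 and VWF differed by -0.06 and 0.01. Of 6 measured markers of leukocytes and endothelium only CD14 and CSF1R passed the rule, toward MDA-MB-231 (33.3%, against 7.42% of all genes). CD3E, PECAM1 and KDR were not well above background in either line.

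The labelled tissues were checked against lineage genes. HCT116 carried the intestinal factor CDX2 (5.75 and 5.73 against 7.94 and 8.03, at least 4.43-fold higher) and MYB (3.09-fold higher), but GATA6 was 5.995-fold higher in MDA-MB-231 and CDX1 differed by -0.11. Of 30 products of intestinal epithelium only 7 were measured. Of these, 1 was higher in HCT116 (14.3%, against 6.95% of all genes), namely CA2, carbonic anhydrase II (at least 9.61-fold). VIL1, CDH17, LGALS4, MUC13, CEACAM5, KRT20, LGR5 and 16 others were not well above background on both arrays of either line. Most of the listed intestinal products were therefore not detected by this filter in the line labelled colorectal. The stem cell marker LGR5 read between 5.71 and 5.79 on the 4 arrays, at the bottom of the range.

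Breast lineage genes were divided. Of 16 measured luminal genes, 3 (18.8%, against 7.42% of all genes) were higher in MDA-MB-231. In HCT116, 1 was higher (6.25%, against 6.95%), and the median difference was -0.002. ESR1, the oestrogen receptor gene, read 6.04 and 6.05 against 6.03 and 6.08, and ERBB2 read 8.91 and 8.94 against 8.93 and 8.94. GATA3 (at least 2.49-fold), CA12 (at least 7.57-fold) and MUC1 (3.50-fold) were higher in MDA-MB-231. The other MUC1 probe differed by 0.04. Of 15 measured basal and stem-like genes, 4 (26.7%, against 7.42% of all genes) were higher in MDA-MB-231 (VIM, CAV1, TRIM29 and SNAI2). In HCT116, 1 was higher (6.67%, against 6.95%). The basal keratin genes KRT5, KRT14 and KRT17 and the basal factor TP63 were not measured in either line. ALDH1A3, an aldehyde dehydrogenase used as a stem cell marker in breast, read 8.21 and 8.16 on the MDA-MB-231 arrays and 11.99 and 12.04 on the HCT116 arrays, 14.2-fold higher in HCT116, the reverse of the breast label. EGFR (0.68) and MET (-0.72) did not pass the rule.

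HOX genes, which give cells their position along the body axis, were mostly higher in HCT116. Of 25 measured, 15 were higher in HCT116 (60%, against 6.95% of all genes) and 0 in MDA-MB-231, with a median difference of -1.39. For 18 of the 25 the probe was not well above background on either MDA-MB-231 array, so they entered through HCT116 alone. Of the 6 that were well above background on all 4 arrays, 3 were higher in HCT116. HOXA9 read 5.70 and 5.71 on the MDA-MB-231 arrays and 10.86 and 10.87 on the HCT116 arrays, at least 32.6-fold higher. HOXB6 (5.74 and 5.76 against 10.28 and 10.44) and HOXA7 were at least 23.0-fold and 13.7-fold higher. HOXB9 and HOXC9 were above background in both lines and 7.42-fold and 8.43-fold higher in HCT116. The A, B and C clusters each had members past the rule, whereas HOXD3 (0.69) and HOXD8 (-0.52) did not pass and HOXA10 and HOXA13 differed by -0.84 and 0.11. Of 11 measured cancer-testis genes, 5 were higher in HCT116 (45.5%, against 6.95% of all genes) and 0 in MDA-MB-231. The 5 were MAGEA1, MAGEA4, MAGEA6, MAGEA12 and MAGEB2. None of these 5 was well above background on both arrays of both lines, 4 having passed the filter through HCT116 alone, so the count describes genes that entered where they were high. The list held the name XAGE1B, which was not found among the array's gene names, and so it left out the near-identical XAGE1A, which was higher in MDA-MB-231 by 8.58.

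**Figure D3:**
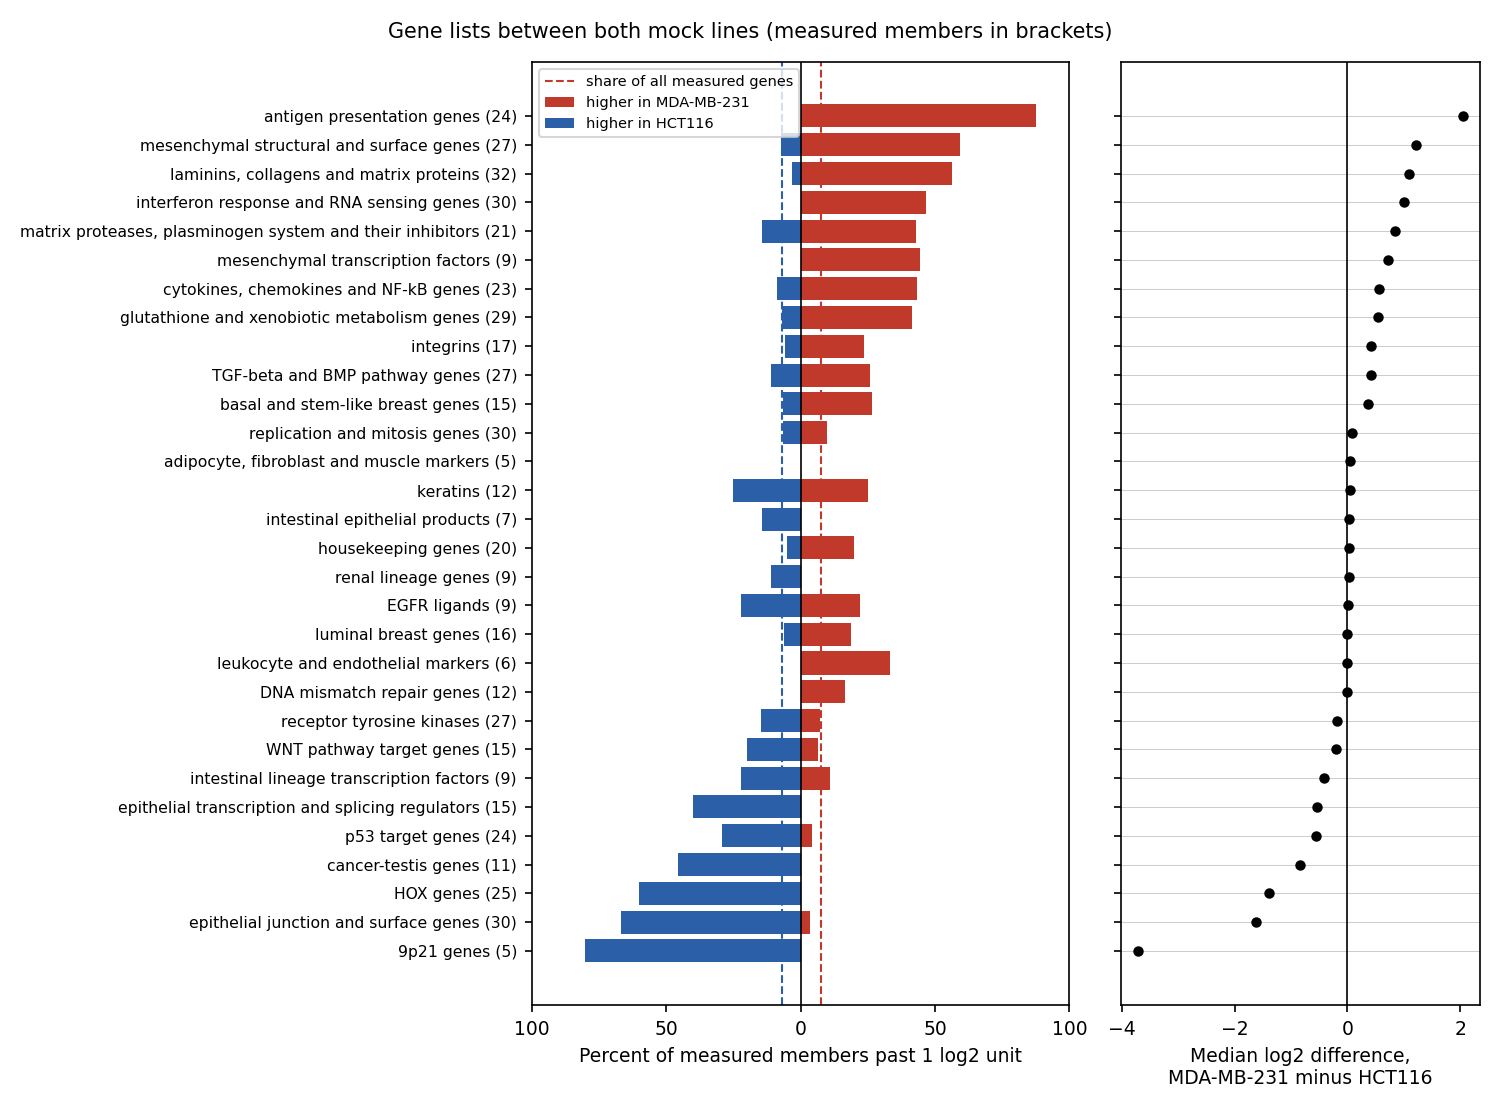
Left, percent of the measured members of each gene list that were at least 1 log2 unit higher in MDA-MB-231 (red, to the right) or in HCT116 (blue, to the left), with dashed lines at the shares over all measured genes (7.42% and 6.95%). Right, the median difference of each list, from 2.05 for antigen presentation genes to -3.72 for genes at 9p21.

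Genes at 9p21, which hold the cell cycle inhibitor CDKN2A, were higher in HCT116 in 4 of 5 measured cases (80%, against 6.95% of all genes). Of these 5, 4 (MTAP, FOCAD, KLHL9 and IFNE) passed the filter through HCT116 alone, so the count and the median of -3.72 rest on genes chosen where they were high. MTAP, which salvages methionine, read 5.79 and 5.71 on the MDA-MB-231 arrays and 10.23 and 10.18 on the HCT116 arrays at chr9:21865830-21865889, at least 20.7-fold higher in HCT116. FOCAD (5.74 and 5.71 against 9.98 and 9.96) and KLHL9 (5.72 and 5.78 against 9.26 and 9.21), which lie beside it, were at least 17.5-fold and 10.6-fold higher. CDKN2A read 6.76 and 6.91 against 10.54 and 10.57, 13.1-fold higher, and in MDA-MB-231 its probe was still above background. IFNE, between KLHL9 and MTAP, differed by -0.46 and was dim in both lines. CDKN2B, DMRTA1 and ELAVL2 were not measured. The genes around this stretch were examined after these values were seen. MLLT3, on the side of FOCAD, differed by 0.36, RPS6 and HAUS6 beyond it by -0.73 and -0.39, and TUSC1 on the other side by -0.03, with 1.89 on its other probe. The noncoding RNA MIR31HG, inside the stretch, read 5.89 in MDA-MB-231 and 8.21 in HCT116. In MDA-MB-231, FOCAD at chr9:20995798-20995857, KLHL9 and MTAP were not well above background. The brightest CDKN2A probe, at chr9:21968039-21968098, and MLLT3 and TUSC1 were, at 6.84, 6.47 and 6.95.

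Of 24 p53 targets, with a median difference of -0.56, 1 was higher in MDA-MB-231 (4.17%, against 7.42% of all genes). The 7 higher in HCT116 made up 29.2%, against 6.95%. Beside GDF15 they were FDXR, a mitochondrial reductase (9.22-fold, 8.995 and 8.90 against 12.20 and 12.11), BTG2, an antiproliferative factor (5.06-fold), PLK3 (4.20-fold), CCNG1 (2.57-fold), AEN (2.51-fold) and BBC3, which encodes PUMA (2.19-fold). The best known targets did not pass, with CDKN1A reading 6.21 and 6.24 against 6.73 and 6.83 and MDM2 differing by -0.53. PLK2 was 2.51-fold higher in MDA-MB-231. Among 12 mismatch repair genes, MSH3 was 2.34-fold higher in MDA-MB-231, with 0.16 on its other probe, and MSH6 and PMS2 differed by 0.55 and 0.22.

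Replication and mitosis genes were called at shares near those over all genes. Of 30, 3 were higher in MDA-MB-231 (E2F1, TOP2A and AURKA, 10%, against 7.42% of all genes). In HCT116, 2 were higher (CCNE1 and GINS2, 6.67%, against 6.95%), and the median difference was 0.07. GINS1, the gene that the siRNAs in the red channel of MDA-MB-231 target, read 9.40 and 9.44 against 9.20 and 9.05 in mock cells. The MCM helicase genes differed by -0.57 (MCM5) to 0.09 (MCM3). Of 20 housekeeping genes, 15 lay within 1 log2 unit. The 4 higher in MDA-MB-231 (20%, against 7.42% of all genes) were B2M, GUSB, ACTB and TUBB. POLR2A was the 1 higher in HCT116 (5%, against 6.95%), so common reference genes were not all equal between the lines. ACTB read 15.52 and 15.50 against 14.40 and 14.35 and GAPDH 13.31 and 13.27 against 14.12 and 14.01, and their differences of 1.14 and -0.78 had opposite signs. The other ACTB probe differed by 0.08. Of 9 measured renal genes 1 (PAX2) was higher in HCT116 (11.1%, against 6.95% of all genes). Of 5 measured adipocyte, fibroblast and muscle markers 0 passed the rule.

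Most genes of each signalling list passed the rule in neither direction. Among 27 receptor tyrosine kinases these were 21. AXL and ROR1 (7.11-fold) were higher in MDA-MB-231, a share of 7.41% against 7.42% of all genes. MST1R, FGFR2, FGFR3 and ROR2 were higher in HCT116 (14.8%, against 6.95%). EREG, the EGFR ligand epiregulin, read 6.49 and 6.40 on the MDA-MB-231 arrays and 10.73 and 10.80 on the HCT116 arrays, 19.99-fold higher in HCT116, and AREG, amphiregulin, was 2.90-fold higher there, while HBEGF and TGFA, ligands of the same receptor, were 2.72-fold and 2.06-fold higher in MDA-MB-231. The other TGFA probe differed by 0.02. Of 27 genes of the TGF-beta and BMP pathway, 7 were higher in MDA-MB-231 (25.9%, against 7.42% of all genes). In HCT116, 3 were higher (11.1%, against 6.95%). Of the 19 well above background on all 4 arrays, 4 were higher in MDA-MB-231 and 2 in HCT116. The ligands TGFB2 (at least 4.01-fold) and BMP4 (6.93-fold), the receptor TGFBR2 (10.90 and 10.91 against 8.68 and 8.74, 4.59-fold) and the BMP antagonist NOG (a difference of 2.91) were higher in MDA-MB-231. The other TGFBR2 probe differed by -0.28. The target ID2 was 12.7-fold higher in HCT116 (7.25 and 7.18 against 10.98 and 10.80), as were BMP7 (at least 4.70-fold) and SMAD1 (3.19-fold), while ID1 and ID3 differed by 0.25 and 0.52. Of 15 WNT target genes, NKD2 (at least 6.82-fold), MYC (2.54-fold) and KREMEN1 were higher in HCT116 (20%, against 6.95% of all genes). BMP4 was higher in MDA-MB-231 (6.67%, against 7.42%), and AXIN2 differed by -0.18. IRAK1, a kinase of interleukin-1 signalling, read 8.39 and 8.18 against 7.52 and 7.51 and did not pass.

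Of 29 genes of glutathione and xenobiotic metabolism, 2 were higher in HCT116 (ALDH1A3 and CYP24A1, 6.9%, against 6.95% of all genes). In MDA-MB-231, 12 were higher (41.4%, against 7.42%), and 4 of the 29 were measured there alone. Beside GSTM3, CYP1B1 and AKR1C3, the group included AKR1C1 (at least 7.85-fold), GPX3 (at least 7.19-fold) and GSTM1 (6.36-fold). GSTM and AKR1C genes have near-identical copies, so single members are uncertain. NQO1, GCLM and GSTP1 differed by 0.40, 0.25 and -0.28, and HMOX1 by -0.50.

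Genes were also read along the genome in runs of neighbours (hg19 positions of the probes). The runs given are those with the highest and lowest medians, so their extreme values follow from that choice. Over runs of 20 neighbouring measured genes, the highest median difference, 1.29, was that of the class II region on chromosome 6 (chr6:32162624-33054418), where 12 genes were higher in MDA-MB-231 and 0 in HCT116. The next runs were at the end of the X chromosome (chrX:153706193-154351184, median 0.95, with MPP1), at chr6:36199930-37450774 (0.91, with KCTD20 and STK38), at the cystatin genes with THBD on chromosome 20 (chr20:23026807-25433543, 0.76) and at the GSTM cluster with CSF1 (chr1:109780709-110564824, 0.72). The lowest was the metallothionein cluster (chr16:56395698-56977759, median -1.08), with 11 genes higher in HCT116. MT1X, MT1M and MT1E, which bind zinc and copper, were 7.83-, 6.02- and 4.37-fold higher there, as far as these alike genes can be told apart. The kallikrein region (chr19:50882329-51499375, -0.90), the HOXA cluster with its flank (chr7:25163135-27220835, -0.88) and a stretch with RAC3, PYCR1 and FASN (chr17:79860717-80059608, -0.80) followed, besides a run around TRIB1 on chromosome 8 (-0.93). By whole chromosome, 14.2% of 695 genes on X and 12.2% of 1082 on chromosome 6 were higher in MDA-MB-231, and 11.8% of 974 on chromosome 16 were higher in HCT116, against 7.42% and 6.95% of all genes.

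The red channel of the same arrays held other RNA of the same lines. Of the 1563 genes higher in mock MDA-MB-231, 1177 (75.3%) were also higher by at least 1 there, and of the 1465 higher in mock HCT116, 1104 (75.4%). Over all 21868 genes measured in the red channel, 1572 were higher by at least 1 in MDA-MB-231 and 1577 in HCT116. Both channels were read from the same spots, so the probe and the slide are shared, and the lines were given different transfections. AREG reversed, with -1.53 in mock and 0.56 in transfected cells. IL6 differed by 3.73 there and IFIT1 by 1.004, against 1.56 and 3.05 in mock cells. GINS1 differed by -1.79 in the channel where MDA-MB-231 carried its siRNAs, against 0.29 in mock cells.

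**Figure D4:**
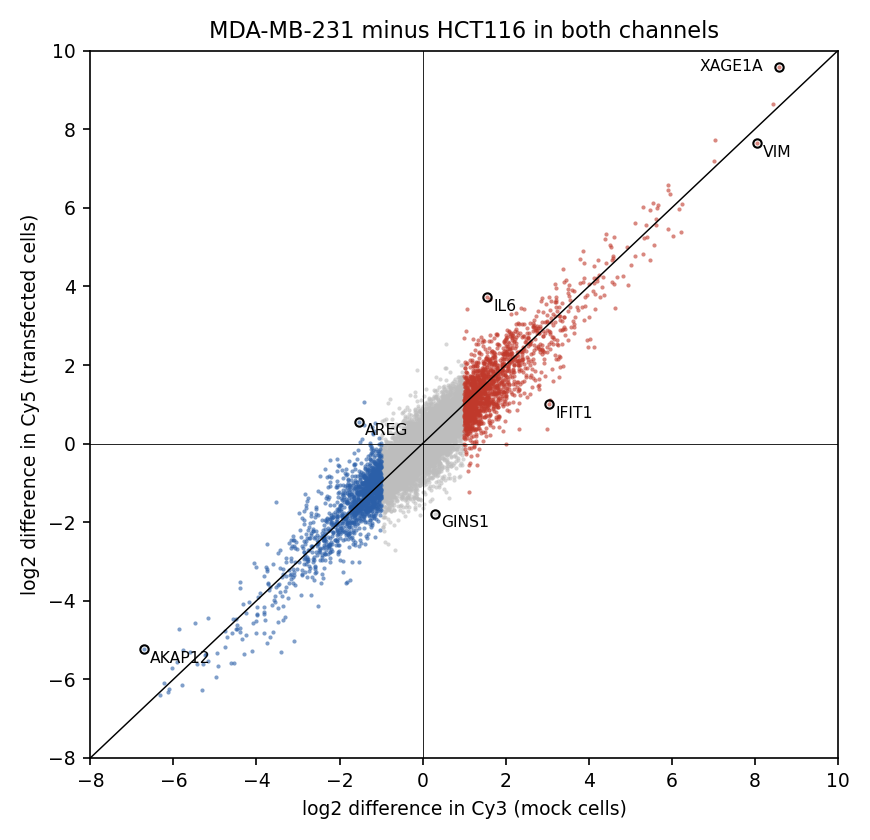
log2 difference of MDA-MB-231 minus HCT116 in the Cy3 channel (mock cells, horizontal axis) and the Cy5 channel (transfected cells, vertical axis) for 20643 genes measured in both, coloured by the call in Cy3, with the line of equal differences. XAGE1A, VIM and AKAP12 stand far out in both channels, while AREG, IL6, IFIT1 and GINS1 lie away from the line.

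The mock channels of A498 and 786-O, renal cancer lines, show on which side a gene stood apart from the rest of the series (levels here after normalization over all 8 arrays). For the genes higher in HCT116, both renal lines were nearer to MDA-MB-231 in 806 of 1465 cases (55%) and nearer to HCT116 in 293 (20%). For the genes higher in MDA-MB-231 the counts were 501 (32.1%) nearer to MDA-MB-231 and 591 (37.8%) nearer to HCT116 of 1563. Of the 20 epithelial genes higher in HCT116, 19 had both renal lines nearer to MDA-MB-231. CDH1 read 5.76 in A498 and 5.73 in 786-O, beside 6.21 in MDA-MB-231 and 9.17 in HCT116, so HCT116 was the line apart. Of the 16 mesenchymal structural and surface genes higher in MDA-MB-231, both renal lines were nearer to MDA-MB-231 in 7 (43.8%) and nearer to HCT116 in 8 (50%). VIM was of the first kind, with 14.77 and 15.10 in the renal lines and 14.65 in MDA-MB-231. The HOX genes showed the reverse, since for 12 of the 15 higher in HCT116 both renal lines were nearer to HCT116. HOXA9 read 10.18, 10.53 and 10.36 in A498, 786-O and HCT116 and 5.70 in MDA-MB-231. GDF15 was lowest in MDA-MB-231 (8.69), with 15.46 in A498, 11.47 in 786-O and 14.49 in HCT116. For this gene 786-O was nearer to MDA-MB-231 and A498 nearer to HCT116. KLK6 and TESC were bright in HCT116 alone, with 5.87 and 5.89 for KLK6 and 5.83 and 5.86 for TESC in the renal lines, and HLA-DPA1 in MDA-MB-231 alone (6.19 and 5.94 in the renal lines). XAGE1A was highest in MDA-MB-231 (13.82) and well above background in both renal lines (7.05 and 8.85).

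**Figure D5:**
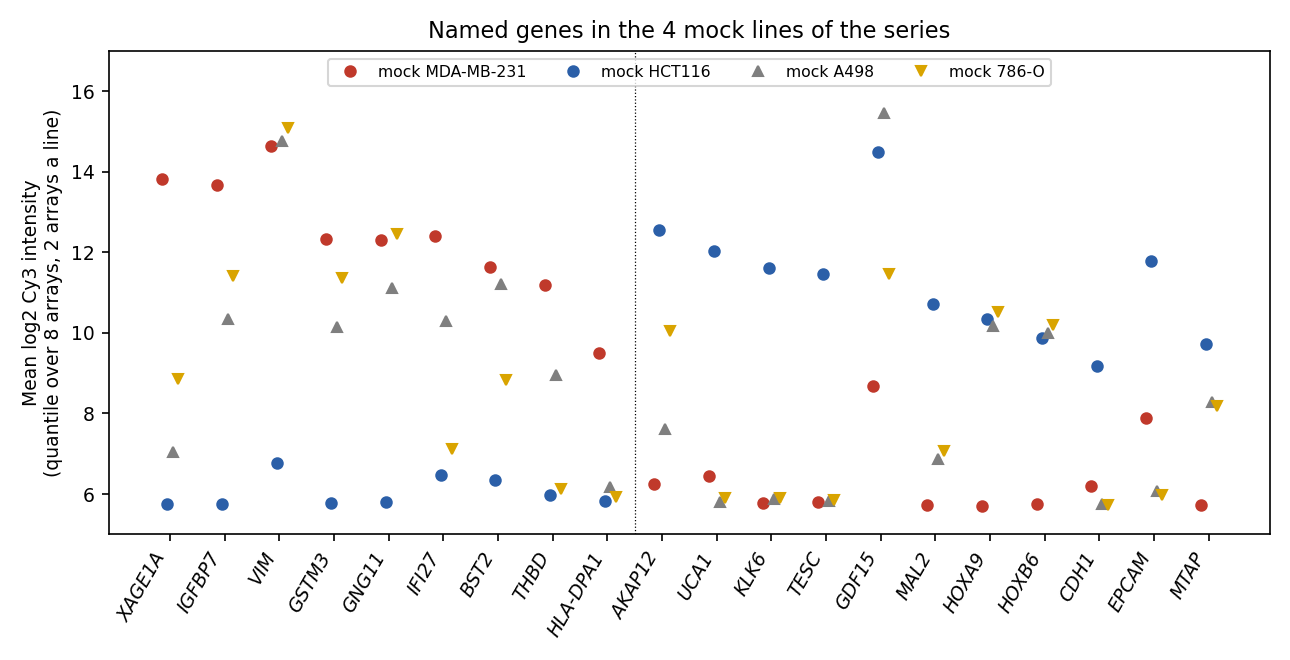
Mean log2 Cy3 intensity of 20 genes in the mock channels of the 4 lines, 2 arrays each, after quantile normalization over 8 arrays, with genes higher in MDA-MB-231 left of the dotted line. VIM is bright in all lines but HCT116, HOXA9 and HOXB6 in all but MDA-MB-231, and UCA1, KLK6 and TESC in HCT116 alone.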

How the data were processed

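Expression was measured on 2-colour Agilent 60K arrays with Trizol-extracted RNA, Cy3 for mock and Cy5 for transfected cells. The authors deposited scanner output of Agilent Feature Extraction 11.5.1.1, in which each spot has a linear Cy3 and Cy5 intensity that was not normalized between arrays. Each array held 62976 spots, of which 2075 were controls, and 58201 probes. Mean Cy3 intensity and median local background were corrected by normexp with an offset of 50 (limma 3.58.1, R 4.3.3, data.table version 1.17.8), taken to log2, cleared of outlier and control spots (104 to 115 outliers per array) and quantile normalized over the 4 Cy3 channels. The offset draws differences of dim probes toward 0. Spots of a probe were averaged, and the brightest probe stood for a gene. Of 33080 probes with an accession, 31104 matched RefSeq, which updated 3367 symbols. Positions of probes came with the arrays (hg19), and exon and UTR boundaries were not used here.

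Tables and figures were made with Python 3.11.15, numpy 2.4.6, pandas 2.3.3 and matplotlib 3.10.9. The code was tested on simulated data. With 1 mock sample per line no test was run, and genes were called by size alone (log2 difference of at least 1). The genes named were the 10 with the largest differences in each direction among genes measured in both lines, the 10 with the largest bounds in each direction among genes measured in 1 line, up to 4 of each of 30 gene lists per direction, genes of the regions described, and 25 genes given by name. Other list members, and values of those that missed the rule, were picked after their values were seen. Deposited names give both arrays of a line the same mock sample number. A bound set the bright line's mean against, per array, the higher of the dim probe's signal and the lowest signal of probes well above background. The comparison and the lists were chosen with earlier results of these data known, and the genes around 9p21, the genes shown in the renal lines and the search for the interferon element were added after values were seen. Alternatives covered the background correction, the scaling, the filter, the probe per gene, the size rule, each array left out and the Cy5 channel. Results of some genes are not reported here.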

Additional observations from a re-analysis of the deposited data

How the results depend on the processing

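The counts moved most where the signal or its background correction was changed. Against 1563 genes higher in MDA-MB-231 and 1465 higher in HCT116, an offset of 10 gave 2506 and 2533, plain subtraction 3349 and 3396, and the scanner's processed signal less its 75th percentile, which changes signal and scaling together, 3855 and 3863, while no background correction gave 2314 genes higher in HCT116. Under a size rule of 2 log2 units they were 426 and 375. The number of gene lists with a median difference of at least 1 in size was 6, and 11 with an offset of 10, 10 with no background correction, 13 with plain subtraction and 14 with the processed signal. AREG reversed to 0.56 in the Cy5 channel, where the RNA was other. Leaving out each array in turn gave 1562 to 1579 and 1448 to 1482 genes. Of 199 called genes named by the rule, those measured under an alternative kept their direction, except AREG in the Cy5 channel. The size rule was still passed by 182 as the median over probes, 185 in the Cy5 channel and 194 with normalization over 8 arrays. A filter on all 4 arrays left 130 of the 199 measured, all past the rule. Under each of the other alternatives in processing or arrays, at least 197 passed. The size of a difference near background is the least certain, since the difference of KLK6 was -6.31 as reported, -11.13 with the processed signal and -4.36 as the median over probes. No paired analysis was possible because each line had 1 mock sample. The share of genes higher in MDA-MB-231 among all called stayed between 49.7% and 53.4%.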
